A study of Mus musculus with 2 samples.

Results

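The genes described are 39 macrophage and leukocyte genes, taken from a list and matched by symbol to the probe sets of the Mouse430_2 array that carry 1 gene symbol. All 39 were found, with 75 probe sets, among 18193 genes with 34945 such probe sets. Their RNA was measured in Malat1 knock-out and wildtype mouse embryonic fibroblasts (MEFs), cells grown out of dissociated embryos of C57BL/6 mice at embryonic day 13.5 and kept in culture for 2 weeks without treatment. The knockout cells lack Malat1, a long noncoding RNA of the nucleus, and each genotype was represented by 1 array. How Malat1 was disrupted, how many embryos were pooled and their sex are not given in the labels. Since neither genotype was replicated, every difference below compares 1 array with another, no p-value was computed, and precision is limited by having 2 arrays.

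Macrophages reach the embryo early, from the yolk sac and later the fetal liver, and clear dying cells in the growing tissues. They depend on the receptor CSF1R, which binds the growth factor CSF1, and on the transcription factor PU.1, encoded by Spi1. Cells of this kind are carried along when whole embryos are dissociated, and fibroblasts secrete CSF1, so that a MEF culture can keep a macrophage component. RNA of the whole culture was measured, and fewer macrophages and less RNA of a gene per macrophage cannot be told apart in it.

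The arrays were first set against their labels. Malat1 read 4.53 on the knockout array and 9.80 on the wildtype array at its brightest probe set, at least 20.6-fold lower in the knockout. The bound arises because the knockout signal lay below the floor, which is the median of each array (5.44 for the knockout and 5.39 for the wildtype) and which a probe set had to reach to count as measured. Xist, the RNA of the inactive X chromosome, read 11.49 on the knockout array and 4.50 on the wildtype array, and Eif2s3y, a Y-linked gene, read 2.81 in the knockout and 8.57 in the wildtype, so sex and genotype cannot be told apart in any difference below. All 20 fibroblast markers listed were measured on both arrays, of which 16 were lower and 4 higher in the knockout, with a median difference of -0.26 that was -0.25 to -0.20 after rescaling. Of all genes measured on both arrays 59.8% were lower, with a median of -0.05. Among these markers, Col6a1 and Col1a1, collagen chains, differed by -0.95 and -0.95 and Col6a2 by -0.82 at their brightest probe sets. A second Col1a1 probe set read 11.74 in the knockout and 12.07 in the wildtype, a difference of only -0.33, and a second Col6a2 probe set differed by -0.83. No gene of the 13 neutrophil and mast cell markers on the arrays reached the floor on either array. Of 16 lymphoid markers 12 lay below it on both, and the remaining 4 were higher in the knockout array, by 0.15 to 0.53. Of all 11294 genes measured on both arrays, 4425 were higher. Cd3e, Cd8a and Cd4 differed by 0.53, 0.29 and 0.21 at their brightest probe sets. That of Cd8a is of the _x_at type, some of whose probes can match other transcripts. The other Cd8a probe sets and the second Cd4 probe set lay below the floors.

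Most of the 39 listed genes were measured in both cultures, and the difference between the genotypes was small. Each gene was represented by its probe set with the highest mean signal, and differences are log2 signals of the knockout minus the wildtype. Of the 39 genes, 34 (87.2%) were measured on both arrays, against 62.1% of all 18193 genes. Cybb (1 gene) was measured on the knockout array alone and 4 (Cd36, Cd83, Clec7a and Itgam) on neither. Among the 34, signals of 22 were lower and of 12 higher in the knockout array, so 64.7% were lower, against 59.8% of all 11294 genes measured on both arrays. Their median difference was -0.14, against -0.05 for all measured genes, and the middle 50% lay between -0.35 and 0.07, against -0.18 and 0.08. The lowest value was -0.59 and the highest 0.37. The SD among the 34 differences was 0.26, against 0.24 over all measured genes.

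The size of the differences was set against fixed marks. At 1.5-fold, 1 gene, Mrc1, was lower, or 2.94% of the 34, against 1.61% of all measured genes, and 0 were higher, against 0.832%. At a lower mark, a log2 difference of 0.32, 11 genes (32.4%) were lower, against 9.91% of all measured genes, and 3 (8.82%) were higher, against 5.96%. The 11 genes were Mrc1, Aif1, Lyz2, Ms4a7, Lcp1, Ptprc, Laptm5, Cd68, Coro1a, Fcgr3 and Apoe, and the 3 were Fcgr2b, Clec4n and Ccr2. After rescaling the arrays, 4 to 7 genes were lower by at least 0.32, with 7 (20.6%) when the measured probe sets were centred on their median, 6 (17.6%) after loess centring and 4 (11.8%) after quantile normalization, against 6.61%, 6.12% and 5.59% of all measured genes. Genes higher by at least 0.32 were 4 (11.8%) on median centring and 3 (8.82%) under the other rescalings, against 7.53% to 8.61% of all measured genes. Cd52 was among them each time, and Ccr2 only on median centring. At the other end, 8 of the 34 genes differed by less than 0.1 as deposited, or 23.5%, against 38.0% of all measured genes.

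**Figure D1:**
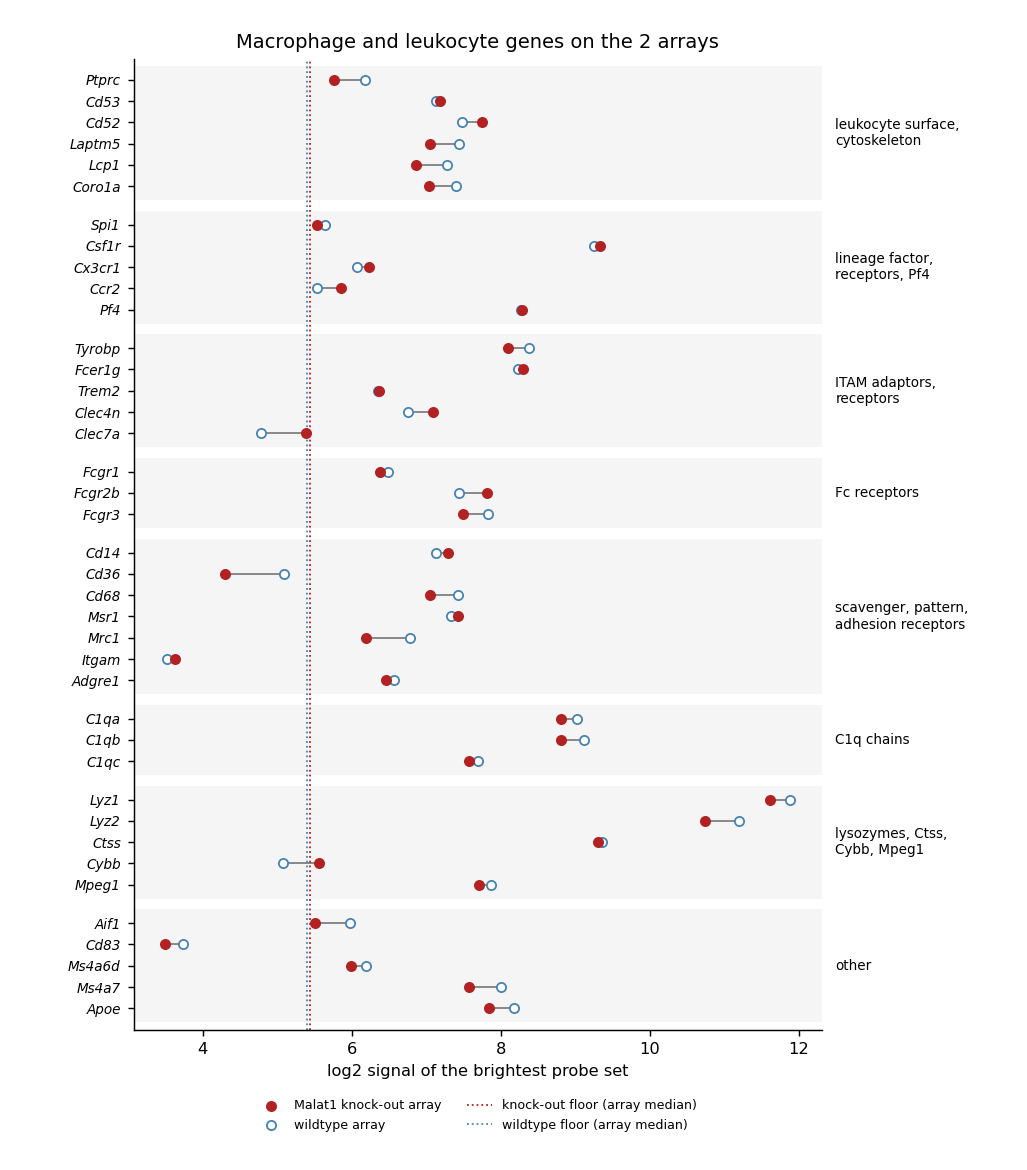
Log2 signal of the brightest probe set of each of the 39 genes on the Malat1 knock-out array (filled) and the wildtype array (open), with the genes grouped by role and the floor of each array dotted. Most pairs lie close together, Mrc1 at 6.20 in the knockout and 6.79 in the wildtype among the widest above the floors, and Cd36, Cd83, Clec7a and Itgam lie below the floor on both arrays.

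**Figure D2:**
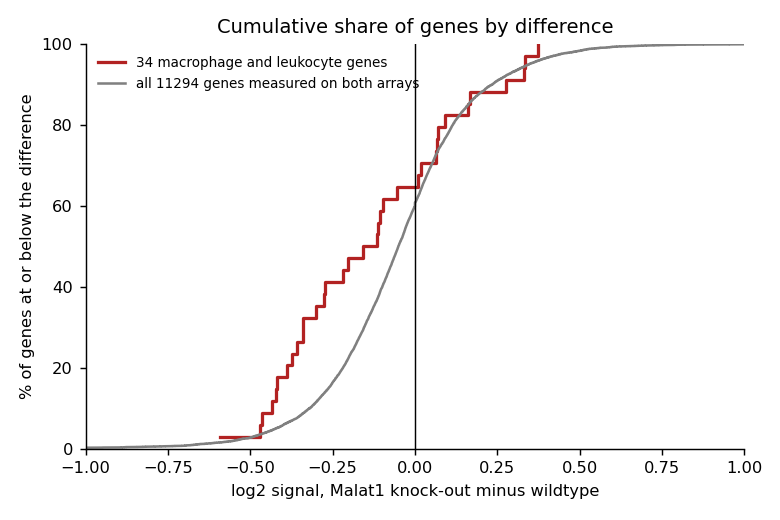
Cumulative percentage of genes (y axis) at or below each log2 difference, Malat1 knock-out minus wildtype (x axis), for the 34 macrophage and leukocyte genes measured on both arrays and for all 11294 measured genes. The curves run apart between about -0.5 and 0, where the 34 genes have the larger share, and lie close together above 0.

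The transcription factor and the receptors that set up the macrophage lineage were at similar levels on the arrays. Csf1r, the receptor for CSF1, read 9.32 in the knockout and 9.26 in the wildtype where it was brightest. The dimmer probe sets read 7.790 in the knockout and 7.997 in the wildtype, a difference of -0.21, and 6.70 in the knockout and 6.54 in the wildtype, a difference of 0.15. The receptor's 3 probe sets therefore lay on both sides of 0. Spi1 read 5.53 in the knockout and 5.64 in the wildtype, just above the floors, so that little room was left to read a decrease. Pf4, the platelet chemokine CXCL4 that macrophages of the mouse embryo also make, read 8.28 in the knockout and 8.27 in the wildtype. Spi1 and Pf4 thus differed by -0.11 and 0.01.

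Chemokine receptors of monocytes were slightly higher in the knockout array but dim. Cx3cr1, the receptor for fractalkine, read 6.23 in the knockout and 6.07 in the wildtype, and its second probe set was below both floors at 3.73 in the knockout and 3.93 in the wildtype. Ccr2, which draws monocytes out of the blood towards CCL2, read 5.86 in the knockout and 5.53 in the wildtype, 1.26-fold higher. The remaining 3 Ccr2 probe sets were below both floors, at 2.61 to 3.27 in the knockout and 2.53 to 3.24 in the wildtype. Both receptors thus rest on 1 probe set each, and that of Ccr2 stood only 0.14 log2 units above the wildtype floor.

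Genes found across leukocytes divided by gene and, within genes, by probe set. Ptprc, the tyrosine phosphatase CD45 of all nucleated blood cells, read 5.76 in the knockout and 6.18 in the wildtype, 1.34-fold lower, while a second probe set lay below the floors at 3.56 in the knockout and 3.32 in the wildtype. The tetraspanin gene Cd53 read 7.19 in the knockout and 7.13 in the wildtype, and Cd52, a small glycoprotein of the leukocyte surface, 7.75 in the knockout and 7.47 in the wildtype. The pan-leukocyte surface genes therefore did not run one way, with Ptprc lower, Cd53 nearly level and Cd52 1.21-fold higher as deposited. After rescaling, Cd53 differed by 0.13 to 0.18 and Cd52 by 0.34 to 0.40.

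The actin-binding genes of leukocytes were lower at their brightest probe sets. Coro1a, which encodes coronin 1A, read 7.04 in the knockout and 7.40 in the wildtype, 1.28-fold lower, and its second measured probe set 6.28 in the knockout and 6.34 in the wildtype. Lcp1, which encodes the actin bundler L-plastin, read 6.86 in the knockout and 7.28 in the wildtype, 1.34-fold lower. Its other probe set read 6.28 in the knockout and 5.85 in the wildtype, 1.34-fold higher. The Lcp1 probe sets disagreed by 0.85 log2 units, more than those of any other gene of the list.

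Laptm5, a lysosomal membrane protein of leukocytes, showed the same kind of disagreement. Laptm5 read 7.05 in the knockout and 7.44 in the wildtype, a difference of -0.39, at its brightest probe set, which is of the _x_at type, some of whose probes can match other transcripts. The other 3 measured probe sets differed by 0.13, 0.22 and 0.19, all higher in the knockout. A gene-level value for Laptm5 therefore has its sign set by which probe set is taken.

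Signalling adaptors that carry an ITAM, the tyrosine motif through which myeloid receptors signal, and the receptors grouped with them showed no common direction. Tyrobp, the adaptor DAP12, read 8.10 in the knockout and 8.38 in the wildtype, 1.21-fold lower. Fcer1g, the Fc receptor gamma chain, read 8.30 in the knockout and 8.23 in the wildtype. The adaptors therefore differed by -0.28 and 0.07, each on a single probe set well above the floors. Trem2, a lipid-sensing receptor that pairs with DAP12, read 6.37 in the knockout and 6.35 in the wildtype, and its other probe set was below the floors at 4.996 in the knockout and 4.769 in the wildtype. Clec4n, which encodes the fungal receptor dectin-2, read 7.10 in the knockout and 6.76 in the wildtype, 1.26-fold higher, but its second probe set read 5.90 in the knockout and 5.94 in the wildtype. Clec7a, which encodes dectin-1, read 5.39 in the knockout and 4.79 in the wildtype, below the floor on both arrays, so no fold is given. None of the 4 genes of this group that were measured on both arrays passed 1.5-fold.

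Fc receptors, which bind antibody, differed in opposite directions for neighbouring genes. Fcgr3, the low-affinity activating receptor, read 7.49 in the knockout and 7.83 in the wildtype, 1.27-fold lower. Fcgr2b, the inhibitory receptor, lies 1 protein-coding gene away on chromosome 1 and read 7.81 in the knockout and 7.44 in the wildtype, 1.30-fold higher. A second Fcgr2b probe set was measured on the wildtype array alone, at 5.17 in the knockout and 5.52 in the wildtype, at least 1.06-fold lower, and the other 3 lay below the floors, at 2.67 to 5.23 in the knockout and 2.61 to 5.21 in the wildtype. The Fcgr2b and Fcgr3 transcripts are close relatives, and whether their probes separate them was not tested. Fcgr1, the high-affinity receptor, read 6.38 in the knockout and 6.49 in the wildtype, with its second probe set the other way at 5.92 in the knockout and 5.68 in the wildtype.

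Among receptors for uptake and adhesion, Mrc1 had the largest difference of the 34 genes. Mrc1, the mannose receptor CD206 of tissue macrophages, read 6.20 in the knockout and 6.79 in the wildtype, 1.51-fold lower, on its only probe set. Cd68, a lysosomal glycoprotein used as a macrophage marker, read 7.05 in the knockout and 7.42 in the wildtype, 1.30-fold lower. Adgre1, an adhesion G protein-coupled receptor typical of mouse macrophages, read 6.47 in the knockout and 6.56 in the wildtype. Of the 5 measured genes of this group these 3 were lower and the other 2, Msr1 and Cd14, higher. Mrc1 dropped under the 1.5-fold mark under each of the 3 rescalings, and the Adgre1 difference of -0.10 became -0.02 after quantile normalization.

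The remaining uptake receptors were level, slightly higher or too dim to read. Msr1, the class A scavenger receptor, read 7.42 in the knockout and 7.33 in the wildtype, and its other measured probe sets differed by 0.03 and -0.02. Cd14, the co-receptor for bacterial lipopolysaccharide, read 7.29 in the knockout and 7.13 in the wildtype, 1.12-fold higher, and its difference of 0.16 was 0.22 to 0.28 after rescaling. The measured Msr1 probe sets lay within 0.11 log2 units of each other. Cd36, a fatty acid and scavenger receptor also found on other cell types, lay below the floors at all 3 probe sets, the brightest at 4.30 in the knockout and 5.09 in the wildtype. Itgam, the integrin chain CD11b, lay below them at its only probe set, at 3.64 in the knockout and 3.53 in the wildtype.

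**Figure D3:**
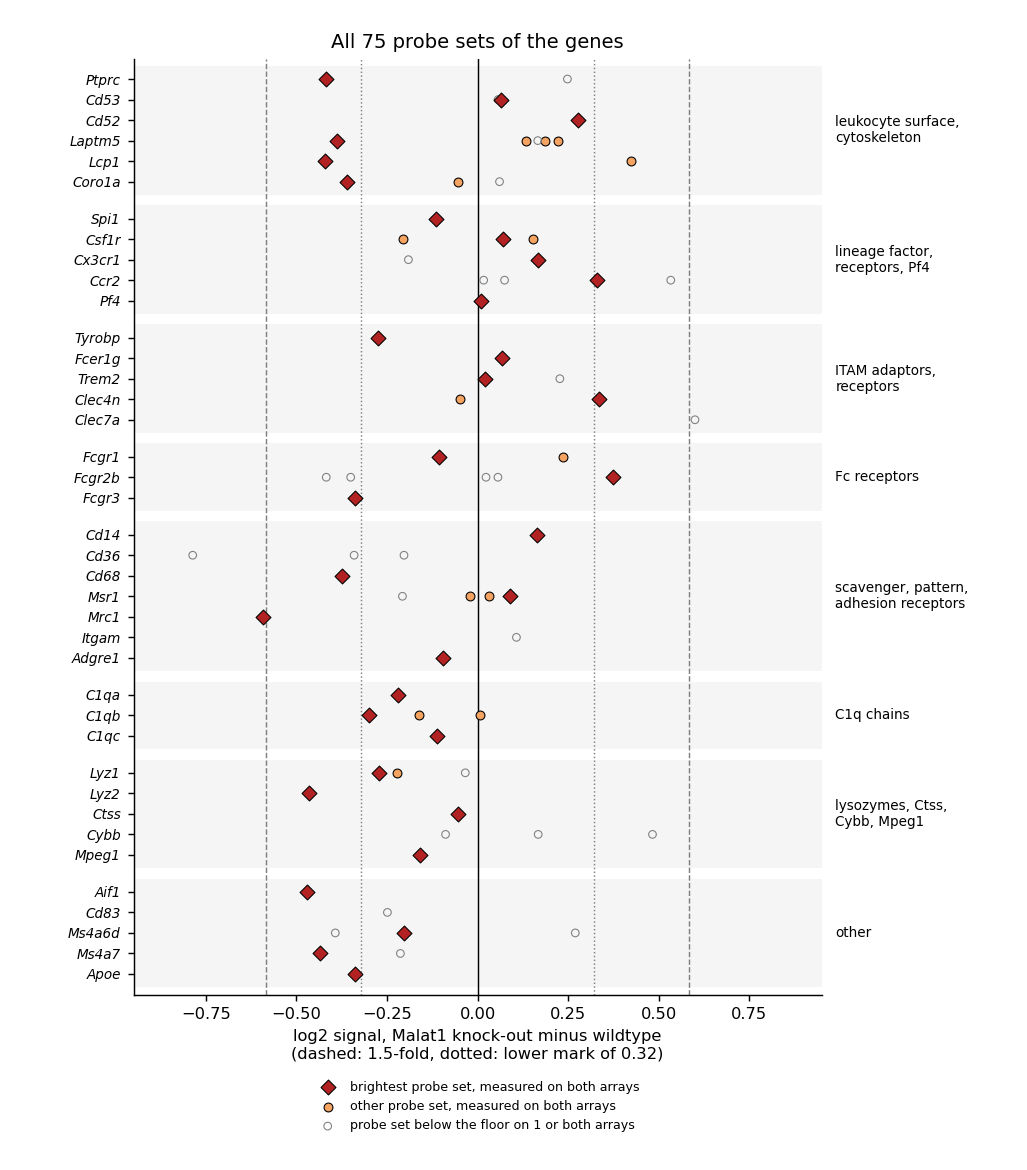
Log2 difference, Malat1 knock-out minus wildtype (x axis), of all 75 probe sets of the 39 genes (rows, grouped by role). Diamonds are the probe sets that stand for a gene, filled circles other probe sets measured on both arrays and open circles those below the floor on an array. The C1q chains, lysozyme genes and Ms4a genes lie mostly left of 0, while probe sets of Lcp1 and Laptm5 lie on both sides.

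The C1q chains, which assemble into the first component of the classical complement pathway and in tissues come largely from macrophages, were all lower at their brightest probe sets. C1qa read 8.81 in the knockout and 9.03 in the wildtype, 1.16-fold lower. C1qb read 8.81 in the knockout and 9.11 in the wildtype, 1.23-fold lower, and its other probe sets read 8.35 in the knockout and 8.51 in the wildtype, and 7.85 in the knockout and 7.84 in the wildtype. C1qc read 7.58 in the knockout and 7.69 in the wildtype, a difference of -0.11 that became 0.01 after quantile normalization. The 3 genes are direct neighbours on chromosome 4 and had a median difference of -0.22. Of their 5 probe sets 4 were lower in the knockout.

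The lysozyme genes were lower at every measured probe set, also under each of the 3 rescalings. Lyz2, the lysozyme of mouse macrophages, read 10.74 in the knockout and 11.20 in the wildtype, 1.38-fold lower. Lyz1, a neighbouring copy known for expression in Paneth cells of the gut, read 11.61 in the knockout and 11.88 in the wildtype at one probe set and 10.27 in the knockout and 10.49 in the wildtype at another, both of the _x_at type. The third Lyz1 probe set, the only one without that suffix, lay far below the floors at 3.21 in the knockout and 3.24 in the wildtype. The bright Lyz1 probe sets can therefore not be assigned to Lyz1 over Lyz2.

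Other genes of lysosomal and microbicidal function showed no common direction. Ctss, the lysosomal protease cathepsin S, read 9.30 in the knockout and 9.36 in the wildtype, and the sign of this difference turned under each of the 3 rescalings. Mpeg1, the pore-forming protein perforin-2, read 7.71 in the knockout and 7.86 in the wildtype, 1.12-fold lower. Cybb, the heavy chain of the phagocyte NADPH oxidase, read 5.57 in the knockout and 5.08 in the wildtype, measured in the knockout alone and at least 1.13-fold higher. Its other probe sets were below the floors, so the Cybb difference rests on a signal 0.13 log2 units above the knockout floor.

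The 4 measured genes of the last group were lower, also under each of the 3 rescalings. Ms4a7, a membrane protein of the MS4A family found on macrophages, read 7.570 in the knockout and 8.004 in the wildtype, 1.35-fold lower, and Ms4a6d, its relative on chromosome 19, read 5.99 in the knockout and 6.19 in the wildtype. Aif1, which encodes the actin-binding protein IBA1, read 5.50 in the knockout and 5.97 in the wildtype, 1.39-fold lower. The knockout value of Aif1 was close to the floor. Apoe, the lipid carrier apolipoprotein E, which is made by cells other than macrophages too, read 7.84 in the knockout and 8.18 in the wildtype, 1.26-fold lower. Cd83, a marker of activated dendritic cells, lay below the floors at 3.49 in the knockout and 3.74 in the wildtype.

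Promoter sequence was examined next. The genes were not chosen by sequence, but macrophages depend on PU.1. A search for PU.1-type letters may thus not be independent of that choice. PU.1 binds purine-rich sites with a GGAA core, and the 6 letters GAGGAA were searched on both strands, so that TTCCTC counts as well, in windows of 250 bases before to 50 after the start site from RefSeq (GRCm38.p6). Windows were at hand for 28 of the 39 genes. At least 1 match lay in the window of 18 of them (64.3%), against 31.3% of all 27025 genes with a window, and in 21 of their 36 windows (58.3%), against 28.3% of all 32851 windows. For TATAAA, searched in the same way, the shares were 13.9% of the 36 windows and 13.6% of all. Whether a match goes with the expression difference was not tested. A match is a description of the letters, not a binding site.

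Windows are given for the genes with the largest differences, Mrc1 and Aif1, for C1qb, and for the lysozyme pair, with GAGGAA or TTCCTC in capitals. They lie at chr2:14229164-14229463 on the plus strand, chr17:35176003-35176302 on the minus strand, chr4:136886151-136886450 on the minus strand, chr10:117282223-117282522 on the minus strand and chr10:117292819-117293118 on the minus strand, and each is written 5′ to 3′ along its gene.
Mrc1: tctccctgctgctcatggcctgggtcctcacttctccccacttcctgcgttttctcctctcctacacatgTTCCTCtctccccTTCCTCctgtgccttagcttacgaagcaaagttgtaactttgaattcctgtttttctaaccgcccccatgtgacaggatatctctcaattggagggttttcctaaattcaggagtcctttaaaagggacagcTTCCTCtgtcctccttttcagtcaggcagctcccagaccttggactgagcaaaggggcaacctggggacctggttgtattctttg
Aif1: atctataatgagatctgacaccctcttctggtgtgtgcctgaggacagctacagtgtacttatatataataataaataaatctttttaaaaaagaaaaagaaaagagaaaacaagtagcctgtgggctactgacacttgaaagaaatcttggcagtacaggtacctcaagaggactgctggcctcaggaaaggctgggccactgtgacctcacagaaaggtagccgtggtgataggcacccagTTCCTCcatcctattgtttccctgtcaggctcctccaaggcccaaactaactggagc
C1qb: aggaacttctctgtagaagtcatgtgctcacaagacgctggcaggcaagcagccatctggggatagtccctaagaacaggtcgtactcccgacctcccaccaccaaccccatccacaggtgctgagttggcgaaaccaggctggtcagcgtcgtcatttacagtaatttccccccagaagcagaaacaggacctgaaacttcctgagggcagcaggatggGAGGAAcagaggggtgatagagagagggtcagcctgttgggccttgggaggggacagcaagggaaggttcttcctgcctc
Lyz2: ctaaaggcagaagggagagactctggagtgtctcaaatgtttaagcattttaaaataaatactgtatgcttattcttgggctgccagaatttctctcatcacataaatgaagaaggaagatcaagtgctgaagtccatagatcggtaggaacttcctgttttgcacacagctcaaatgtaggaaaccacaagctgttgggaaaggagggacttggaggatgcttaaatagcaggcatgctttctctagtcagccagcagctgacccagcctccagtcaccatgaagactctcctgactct
Lyz1: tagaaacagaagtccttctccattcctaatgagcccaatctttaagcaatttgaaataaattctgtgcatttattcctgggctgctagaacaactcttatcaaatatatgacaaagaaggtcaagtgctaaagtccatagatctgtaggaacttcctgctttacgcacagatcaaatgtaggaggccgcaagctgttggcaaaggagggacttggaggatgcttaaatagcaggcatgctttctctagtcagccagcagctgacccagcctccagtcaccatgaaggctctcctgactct

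The Mrc1 window held 3 matches, beginning 180, 167 and 35 bases before the start site. The match of Aif1 began 7 bases before it and that of C1qb 30 bases before it. The lysozyme windows held none and resemble each other closely, with 249 of 298 aligned bases identical (83.6%), in a pair of genes whose signals the _x_at probe sets may not separate.

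Probe sets of the same gene gave the one check available within the arrays, although they come from the same RNA and do not replicate the cultures. Of the 75 probe sets, 48 were measured on both arrays, 28 lower and 20 higher in the knockout, or 58.3% lower, against 61.7% of all 19178 measured probe sets with 1 symbol. Their median difference was -0.08, against -0.06. Counted by probe set, the macrophage and leukocyte genes thus lay near the arrays as a whole in the share lower and in the median. Neither measure covers the larger decreases reported by gene at the lower mark. The shares past that mark were not compared by probe set. Of 9 genes with several measured probe sets, 2 (22.2%) had all of them on the same side of 0, Coro1a and Lyz1, against 56.3% of 4881 genes. The 7 others were C1qb, Clec4n, Csf1r, Fcgr1, Laptm5, Lcp1 and Msr1. The brightest probe set was lower in 6 of the 9 genes, with a median of -0.27, and the next brightest in 5 of 9, with a median of -0.05. Differences of the same gene scattered by 0.25 (pooled SD over probe sets) for these genes and by 0.20 for all genes. Among the genes measured on both arrays, the 17 with a single probe set on the array, which cannot be checked in this way, included 13 lower and 4 higher. The 17 with several included 9 lower and 8 higher.

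Further macrophage genes, from a second list of 77, did not share the lower direction. Of 69 on the arrays, 32 were measured on both and 31 on neither. Of the 32, 12 were lower, 19 higher and 1 equal in the knockout, with a median of 0.06 that was 0.08 to 0.12 after rescaling. Of all measured genes 59.8% were lower, with a median of -0.05. At 1.5-fold, 1 of the 32 was lower and 2 were higher, against 1.61% and 0.832% of all measured genes. Cd40, a co-stimulatory receptor of antigen-presenting cells, read 7.996 in the knockout and 7.268 in the wildtype, 1.66-fold higher, with its other measured probe sets 0.92 and 0.38 higher. Cd80, a ligand of T cell co-stimulation, read 6.80 in the knockout and 7.49 in the wildtype, 1.62-fold lower, with its other measured probe sets at -0.91 and -0.57. Ly86, a secreted partner of a Toll-like receptor relative, read 6.61 in the knockout and 5.99 in the wildtype, 1.54-fold higher. The largest differences of this list therefore ran both ways.

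Genes that feed or attract macrophages were compared next. Csf1, the ligand of CSF1R, read 10.49 in the knockout and 10.50 in the wildtype where it was brightest, and the other 3 probe sets differed by -0.22 to -0.09. The second ligand, Il34, lay below the floors at 5.26 in the knockout and 4.98 in the wildtype. Of 8 measured chemokines that attract monocytes or come from myeloid cells, 7 were lower in the knockout and 1 was higher, with a median of -0.40 (-0.34 to -0.31 after rescaling, with 6 lower). Of all measured genes 59.8% were lower, or 44.8% to 47.6% after rescaling. Ccl7, a ligand of CCR2, read 8.77 in the knockout and 9.49 in the wildtype, 1.65-fold lower, the only one of the 8 past 1.5-fold. Ppbp, a platelet chemokine, and Ccl12, another ligand of CCR2, differed by -0.56 and -0.45. Of 10 measured growth factors, their receptors and myeloid regulators 7 were lower, against the same 59.8% of all measured genes. Their median was -0.18 (-0.15 to -0.12 after rescaling, with 6 lower). Maf, a factor of macrophage differentiation, differed by -0.68 at its brightest probe set and by -0.27 at its other measured one. Its remaining probe sets lay below the floors. Maf was the only gene of this group past 1.5-fold, and fell under that mark after quantile normalization and loess centring. Klf4 and Cebpb, factors also active in fibroblasts, differed by -0.53 and -0.50.

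Lysosome, complement and red cell or megakaryocyte genes held no gene past 1.5-fold with the values as deposited. Of 19 measured lysosome genes 13 had lower and 6 higher signals in the knockout, with a median of -0.04, which turned to 0.02 on median centring. Of all measured genes 59.8% were lower, with a median of -0.05. Glb1, beta-galactosidase, differed by -0.54, Ctsb, the protease cathepsin B, by -0.47, and Psap, which encodes the saposins, by -0.44. The 3 measured complement genes other than C1q differed by 0.52 for C2, -0.13 for Serping1 and 0.01 for Cd55, a median that turned to about 0 after loess centring. These are the values of the brightest probe sets, that of C2 of the _x_at type. The other measured Cd55 probe sets were higher in the knockout, by 0.56 and 0.20, so Cd55 cannot be called level. The other C2 probe sets lay below the floors, with differences of 0.13 and -0.09. Of 5 measured erythroid and megakaryocyte genes 4 were higher and 1 lower, with a median of 0.05 that was 0.11 to 0.14 after rescaling. Epor differed by 0.18, Gp1bb by -0.13 and Itgb3 by 0.11 at their brightest probe sets. The other measured probe set went the opposite way for Gp1bb (0.24) and for Itgb3 (-0.07), so the signs of both depend on the probe set taken.

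**Figure D4:**
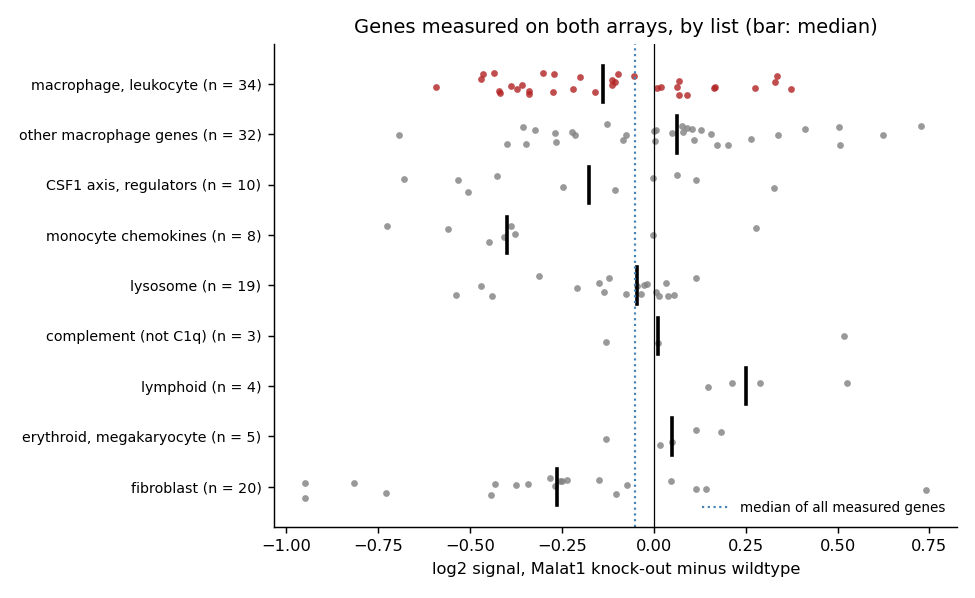
Log2 difference, Malat1 knock-out minus wildtype (x axis), of the genes measured on both arrays in each list (rows, 1 point per gene, bar at the median), with the median of all measured genes dotted. The 34 macrophage and leukocyte genes center on -0.14, the 32 further macrophage genes on 0.06, the monocyte chemokines on -0.40 and the fibroblast markers on -0.26.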

How the data were processed

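RNA of 1 Malat1 knock-out and 1 wildtype MEF culture was hybridized to Affymetrix Mouse430_2 arrays. Per the labels' protocols, 100 ng of total RNA was used for biotin labelling. Each probe set has 1 value as the authors deposited it, taken here as a log2 signal from its range (2.09 to 14.65 over 45037 non-control probe sets). The labels name no summarization, normalization or software. Probe sets were named from the platform annotation, in which 34945 had 1 symbol, 932 several and 9160 none, and all 39 symbols matched RefSeq. A probe set was measured at or above its array's median, and 1.5-fold was the main mark. Genes and lists were chosen with earlier results of these data known.

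Named genes are all 39 members and, of each of 9 other lists, up to 3 measured genes with the largest difference. Csf1, Il34, Xist, Eif2s3y and the promoter motifs were added after values were seen. Counting and rescaling (Python 3.11.15, pandas 2.3.3, statsmodels 0.14.6) were tested on simulated data. Alternatives covered scaling, floor, gene representation, probe set type, an added constant and the mark.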

Additional observations from a re-analysis of the deposited data

How the results depend on the processing

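No paired analysis was possible because there is a single knockout and a single wildtype array. The median difference of the measured genes stayed below 0 under all 11 alternatives (-0.22 to -0.08), over 39 genes without a floor, 36 with it at the 40th percentile, 26 with the median over all probe sets and 34 under each alternative of scaling, added constant or mean over measured probe sets, yet the share of lower genes moved from above that of all measured genes to below it with the mean over measured probe sets (55.9% against 61.6%), the median over all probe sets (57.7% against 60.1%) and without _x_at, _s_at and _a_at probe sets (58.3% against 61.4%). Under the 3 rescalings 20 or 21 of the 34 genes were lower (58.8% or 61.8%), against 44.8% to 47.6% of all measured genes. Of 48 measured probe sets 43 kept their sign. A floor at the 75th percentile left 11 genes, 8 lower and 3 higher, and leaving out suffixed probe sets left 14 lower genes of 24. At 1.5-fold the 1 lower gene became 0 under each rescaling, that floor, either added constant and the 2-fold mark, 2 without a floor and 11 at the lower mark of 0.32, and the 0 higher genes became 1 without a floor or with it at the 40th percentile and 3 at the lower mark. At that mark (alternatives chosen after seeing the data) the 11 lower genes became 7, 4 and 6 under median, quantile and loess rescaling, 2 with the 75th percentile floor, 6 with the median over all probe sets or without suffixed ones, and 3 with 64 added to linear values, and the 3 higher became 5 without a floor or at the 40th percentile, 1 with 16 added or without suffixed probe sets, and 0 with 64 added, the 75th percentile floor or the median over all probe sets. At the 0.32 mark the share of lower genes stayed above that of all measured genes under each alternative. It was 8.82% to 30.8%, against 4.94% to 11.1%. With the 75th percentile floor it was 18.2% against 7.58%, and with 64 added 8.82% against 4.94%. The share of higher genes lay above or below that of all measured genes. It was 13.9% against 8.42% at the 40th percentile and 0% against 4.20% with the median over all probe sets. Fewer genes were measured under the higher floor and without suffixed probe sets. The cause of the other changes was not tested. Signals near the floor (Spi1, Ccr2, Aif1, Cybb) limit what a decrease can show.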
